A study of Homo sapiens with 6 samples.

Results

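The genes described here are 9 genes of prostaglandin E2 synthesis, sensing and breakdown, out of 17631 genes with a value in each library. They are the phospholipase PLA2G4A, the cyclooxygenases PTGS1 and PTGS2, the prostaglandin E synthases PTGES, PTGES2 and PTGES3, the receptors PTGER2 and PTGER4, and the prostaglandin dehydrogenase HPGD. They were chosen by symbol because of what they do and because of how some of them differed between the libraries used here, so their own differences between groups are given as a description without a p-value. Polyadenylated RNA was sequenced from MDA-MB-231, an established human cell line of triple-negative breast cancer, after 24 h with vehicle or with 30 µM PDBAG1, and each group held 3 libraries. PDBAG1 is a synthetic peptide that joins a stretch of the enzyme GPD1, found in breast adipose tissue, to a cell-penetrating sequence, and what the vehicle contained is not given in the sources used here. The labels name no genetic change in either group, and all libraries came from this 1 line. Although the labels also name breast cancer tissue as the source, the values come from cultured cells. No label says that the 3 libraries of a group came from separate cultures, so the p-values below measure only the spread between these libraries, which may be technical.

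Prostaglandins are short-lived lipid signals. Cytosolic phospholipase A2 frees arachidonic acid from membranes, a cyclooxygenase turns it into prostaglandin H2, and a terminal synthase converts that into a given prostanoid such as prostaglandin E2. Prostaglandin E2 leaves the cell, acts on EP receptors, of which EP2 and EP4 raise cyclic AMP, and is inactivated by 15-hydroxyprostaglandin dehydrogenase. In breast and other epithelial cancers the inducible cyclooxygenase PTGS2, also called COX-2, is known as a source of tumour prostaglandin E2.

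Values are TPM, a transcript's share of all transcripts after division by length, which can be compared between genes but keeps no sequencing depth. Between 12392 and 12611 genes reached 1 TPM in each library, and the SD of log2 differences between libraries was 0.142 to 0.175 within a group and 0.278 to 0.296 between groups. The line's markers VIM, CD44 and EGFR were at 66.3 to 5942 TPM, and ESR1, PGR, CDH1 and EPCAM were at 0 to 5.78 TPM. Of the markers of other cells, the summed level of the 3 endothelial genes was 4.11 to 4.40 TPM with vehicle and 8.42 to 9.60 TPM with PDBAG1, almost all of it PECAM1, while VWF and CDH5 were under 1 TPM in every library. The 3 leukocyte markers with a value summed to 9.17 to 11.04 TPM with vehicle and 8.90 to 9.60 TPM with PDBAG1, the 3 fibroblast markers to 3.93 to 4.08 and 4.37 to 4.96 TPM, and the 3 adipocyte markers to 0.81 to 1.16 and 0.96 to 1.58 TPM. The part of these markers in the results below was not tested.

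The clearest differences lay at the cyclooxygenase step and at the terminal synthase. PTGS2 was 5.67 times as high with PDBAG1 as with vehicle, PTGES was 1.66 times as high and PLA2G4A 1.28 times, whereas PTGES2, PTGES3 and both receptors lay within 0.19 log2 units of vehicle. In a limma fit over the 12582 genes with at least 1 TPM in 3 or more libraries, 3 of the 7 genes that passed this filter had an adjusted p under 0.05, against 37.6% of all genes tested, and 2 of them were also past a 1.5-fold difference, against 3.34%. All 3 were higher with PDBAG1, as were 21.7% of all genes at that adjusted p and 2.86% with the 1.5-fold limit. Among all 9 genes, the 2 groups did not overlap for 6, of which 4 were higher and 2 lower with PDBAG1. Over all genes tested, the groups did not overlap for 47.4%, with 27.2% higher and 20.2% lower. Nothing is read from these counts, since the same values chose the genes. RNA from whole cultures cannot tell a higher level in each cell from a larger share of cells with the transcript.

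**Figure D1:**
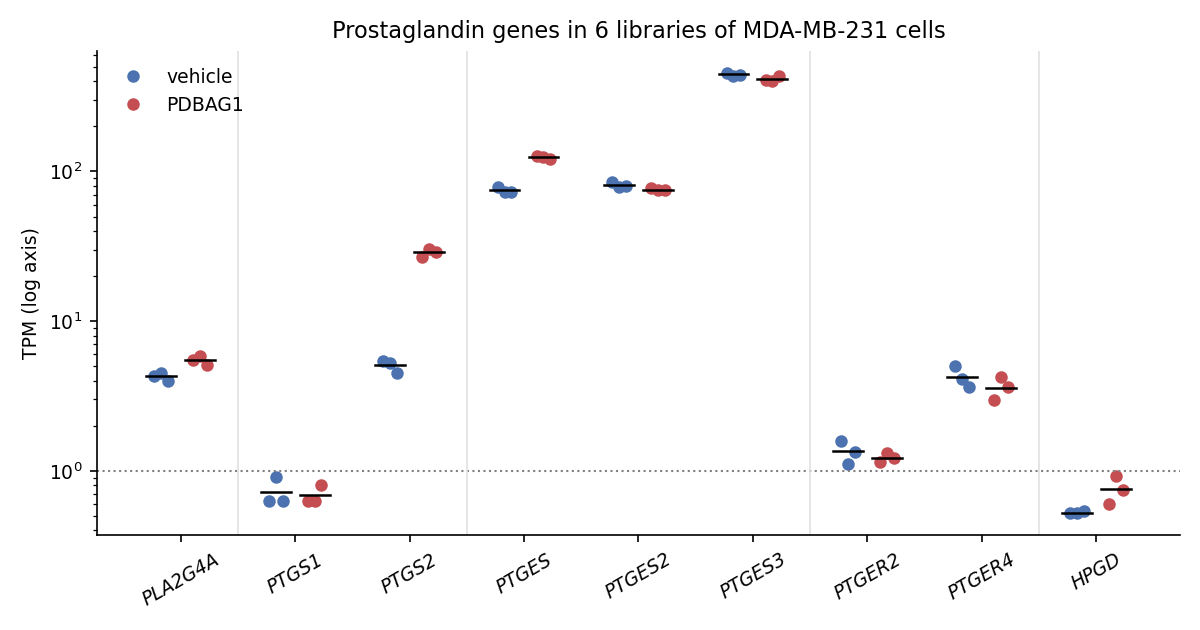
TPM of each of the 9 genes on a log axis in the 3 vehicle and 3 PDBAG1 libraries, where each point is 1 library, the black bar is the group mean and the dotted line marks 1 TPM. PTGS2 moves from about 5 to about 29 TPM, PTGES2 and PTGES3 differ little, and PTGS1 and HPGD lie under the dotted line.

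PLA2G4A (chromosome 1, 186828949 to 186988981, plus strand, 18 exons, GRCh38) encodes cytosolic phospholipase A2 alpha, which releases arachidonic acid. It was at 4.31, 4.54 and 3.99 TPM with vehicle and at 5.48, 5.84 and 5.07 TPM with PDBAG1. All 3 PDBAG1 libraries were above all 3 vehicle libraries. The means were 4.28 ± 0.276 and 5.46 ± 0.385 TPM (SD, n = 3), and the log2 difference on the log2(TPM + 1) scale was 0.29 (SE 0.09).

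PTGS1 (chromosome 9, 122370530 to 122395703, plus strand, 11 exons) encodes the constitutive cyclooxygenase. It was at 0.63, 0.91 and 0.63 TPM with vehicle and 0.63, 0.63 and 0.80 TPM with PDBAG1, so the groups overlapped and the gene stayed under the filter. Its means were 0.723 ± 0.162 and 0.687 ± 0.0982 TPM (SD, n = 3).

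PTGS2 (chromosome 1, 186671791 to 186680922, minus strand, 10 exons) encodes the inducible cyclooxygenase. It was at 5.42, 5.29 and 4.53 TPM with vehicle and at 26.98, 30.23 and 29.16 TPM with PDBAG1. The lowest PDBAG1 library was well above the highest vehicle library. Means were 5.08 ± 0.481 and 28.8 ± 1.66 TPM (SD, n = 3), a log2 difference of 2.29 (SE 0.08) on the log2(TPM + 1) scale. It had rank 2 among the genes tested, counted down from the largest increase. The long noncoding RNA PACERR lies antisense across the start of PTGS2 and overlaps it by 322 bases. Whether the counting used strand is not given in the sources used here, and PACERR was not analysed here.

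Promoter sequence is shown for PTGS2, PTGES and PLA2G4A, the genes of the pathway that differed upward between the groups and passed the filter. Each is the 250 bases before the start of transcription, 5′ to 3′ on the gene's strand, from RefSeq on GRCh38.p14, and capitals mark every match to one of 7 motifs. The windows are chr1:186680424-186680673 (minus strand) for PTGS2, chr9:129753043-129753292 (minus strand) for PTGES and chr1:186828699-186828948 (plus strand) for PLA2G4A. The PTGS2 window lies inside the gene span given above, which is from GENCODE and reaches further upstream than the RefSeq start used here. The motifs were the TATA box TATAAA on the gene's strand and, on both strands, the cyclic AMP response element (CRE) core CGTCA, the E-box CANNTG, the C/EBP motif TTNNGNAA, the AP-1 motif TGANTCA, the GC box GGGCGG and an NF-kB-like motif of GGGA and CC with 4 bases of any kind between them.
PTGS2: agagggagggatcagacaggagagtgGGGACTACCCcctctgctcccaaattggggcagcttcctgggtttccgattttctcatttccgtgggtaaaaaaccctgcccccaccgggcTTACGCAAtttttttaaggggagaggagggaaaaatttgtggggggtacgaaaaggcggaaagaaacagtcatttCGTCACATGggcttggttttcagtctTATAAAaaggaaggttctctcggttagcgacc
PTGES: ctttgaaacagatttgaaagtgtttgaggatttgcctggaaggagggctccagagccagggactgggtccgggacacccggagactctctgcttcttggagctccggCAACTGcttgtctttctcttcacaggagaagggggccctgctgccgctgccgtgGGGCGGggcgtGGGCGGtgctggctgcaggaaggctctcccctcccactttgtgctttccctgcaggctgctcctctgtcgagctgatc
PLA2G4A: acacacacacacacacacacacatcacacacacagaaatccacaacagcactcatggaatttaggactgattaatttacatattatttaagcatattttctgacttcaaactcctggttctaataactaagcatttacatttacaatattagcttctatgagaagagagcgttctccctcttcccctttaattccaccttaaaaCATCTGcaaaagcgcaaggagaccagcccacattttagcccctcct
PTGS2 carried a TATA box from base -32 to -27, counted back from the start of transcription. A CRE core lay from -58 to -54, an E-box that overlaps it from -55 to -50, a C/EBP motif from -133 to -126 and an NF-kB-like motif from -224 to -215. The window of PTGES held an E-box from -143 to -138 and GC boxes from -89 to -84 and from -78 to -73, and that of PLA2G4A held only an E-box from -46 to -41. All 9 genes matched RefSeq with 13 windows between them, and the PTGS2 window alone among them held a TATA box, which 6.80% of 35116 promoter windows of that length held. The shares for the other motifs were 21.2% for the CRE core, 61.8% for the E-box, 33.2% for C/EBP, 6.57% for AP-1, 42.6% for the GC box and 22.6% for the NF-kB-like motif. A match is a run of letters, not a bound site.

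**Figure D2:**
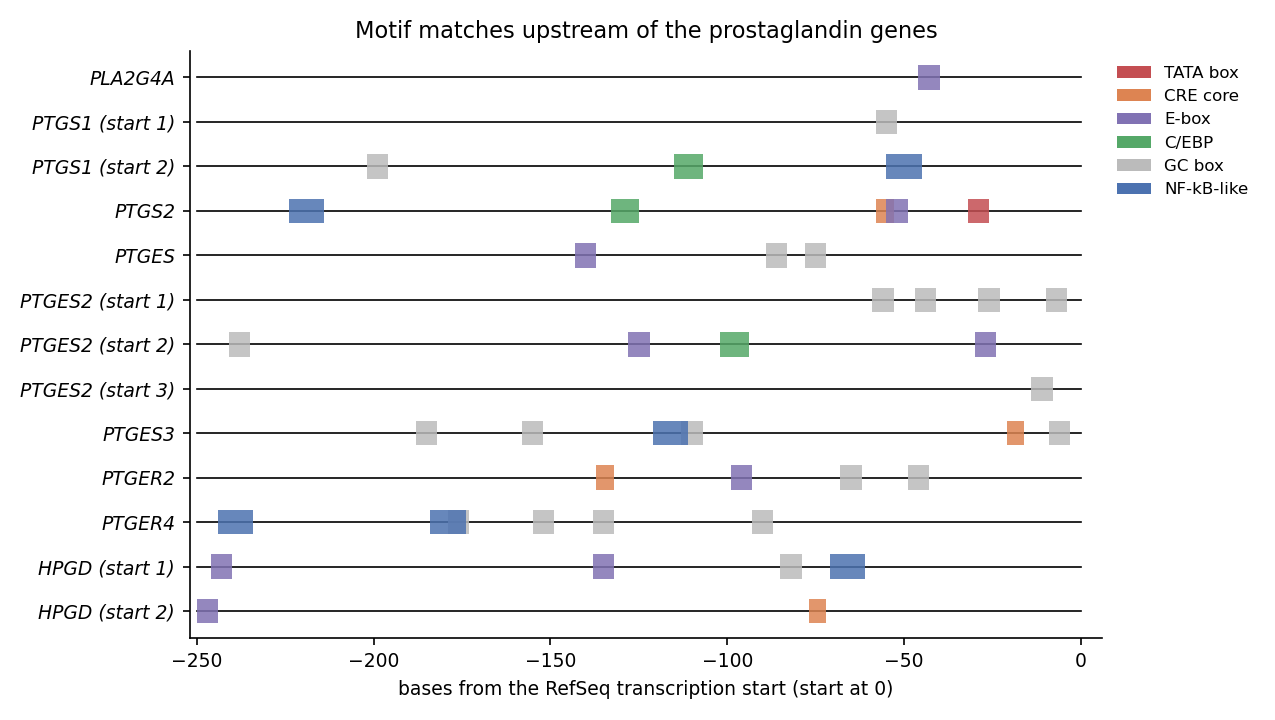
Positions of the motif matches in the 250 bases before the start of transcription of each window of the 9 genes, with the distance from the start in bases on the x axis, 1 row per window and 1 colour per motif. The PTGS2 row holds 5 different motifs, the rows of PTGES3, PTGER4 and the first PTGES2 start hold 4 GC boxes each, and no row holds an AP-1 match.

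PTGES (chromosome 9, 129738331 to 129753042, minus strand, 3 exons) encodes microsomal prostaglandin E synthase-1, the inducible terminal synthase that works with PTGS2. It was at 78.95, 72.68 and 72.53 TPM with vehicle and at 127.11, 124.32 and 120.57 TPM with PDBAG1. Every PDBAG1 library was above every vehicle library, with means of 74.7 ± 3.66 and 124.0 ± 3.28 TPM (SD, n = 3) and a log2 difference of 0.72 (SE 0.05). PTGES2 (chromosome 9, 128120693 to 128128462, minus strand, 7 exons) encodes a membrane-associated synthase and lies 1.61 Mb from PTGES. It was at 84.59, 78.95 and 80.30 TPM with vehicle and 77.00, 75.41 and 74.80 TPM with PDBAG1. PTGES2 was thus lower in every PDBAG1 library, although by a log2 difference of only -0.10 (SE 0.05). PTGES3 (chromosome 12, 56663341 to 56688408, minus strand, 8 exons) encodes the cytosolic synthase, which is also p23, a cochaperone of HSP90. It was at 456.12, 435.46 and 442.28 TPM with vehicle and 406.84, 400.93 and 433.39 TPM with PDBAG1, and again the groups did not overlap. Its log2 difference was also -0.10 (SE 0.04), and 5 pseudogenes of PTGES3 in the annotation could have shared its reads.

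The balance between the synthases also differed between the groups. Within each vehicle library PTGES was at 0.903 to 0.933 times the level of PTGES2, and within each PDBAG1 library at 1.61 to 1.65 times. PTGES made up 12.4% ± 0.281 of the summed level of the 3 synthases with vehicle and 20.2% ± 0.911 with PDBAG1 (SD, n = 3). PTGES3 held 74.0% ± 0.375 and 67.4% ± 1.31, so it remained the most abundant of the 3 in every library. At the cyclooxygenase step, PTGS2 made up 89.6%, 85.3% and 87.8% of the PTGS1 and PTGS2 sum with vehicle and 97.7%, 98.0% and 97.3% with PDBAG1. PTGS2 was thus the main cyclooxygenase transcript in every library of both groups. The ratio of PTGES to PTGS2 was 14.8 ± 1.15 with vehicle and 4.32 ± 0.339 with PDBAG1, and that of PTGS2 to PLA2G4A 1.19 ± 0.0637 and 5.28 ± 0.424 (SD, n = 3). These ratios are built from the values above and add no independent evidence.

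The receptors were low and their groups overlapped. PTGER2 (chromosome 14, 52314305 to 52328598, plus strand, 2 exons) encodes EP2 and was at 1.59, 1.12 and 1.34 TPM with vehicle and 1.15, 1.31 and 1.21 TPM with PDBAG1. Its log2 difference was -0.08, with a 95% interval of -0.33 to 0.18. PTGER4 (chromosome 5, 40679915 to 40693735, plus strand, 3 exons) encodes EP4 and was at 5.03, 4.11 and 3.64 TPM with vehicle and 2.97, 4.23 and 3.61 TPM with PDBAG1. The interval of its log2 difference of -0.19 was -0.46 to 0.07. PTGER4 lies wholly within the span of TTC33 on the opposite strand, at 14.9 ± 0.967 and 15.2 ± 1.81 TPM (SD, n = 3), and has 2 pseudogenes, so its low level is uncertain. The ratio of PTGER4 to PTGER2 was 3.18 ± 0.477 with vehicle and 2.93 ± 0.326 with PDBAG1.

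HPGD (chromosome 4, 174490175 to 174523154, minus strand, 7 exons) encodes 15-hydroxyprostaglandin dehydrogenase, the first enzyme of prostaglandin E2 breakdown. It was at 0.52, 0.52 and 0.54 TPM with vehicle and 0.60, 0.92 and 0.75 TPM with PDBAG1, means of 0.527 ± 0.0115 and 0.757 ± 0.160 TPM (SD, n = 3). The groups did not overlap, but every library was under 1 TPM and the gene was not tested.

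By level, PTGES3 stood highest with vehicle, followed by PTGES2 and PTGES, which shared the value 78.95 TPM. PTGS2, PLA2G4A and PTGER4 came next with overlapping ranges, then PTGER2, PTGS1 and HPGD. With PDBAG1, PTGES stood above PTGES2, and PTGS2 stood above PLA2G4A and PLA2G4A above PTGER4 with no overlap, whereas PTGS1 and HPGD overlapped.

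Genes around the 9 were read from lists of the pathway, of which 95 of 100 had a value and 74 were tested. The lists were written with an earlier account of these data known, which named PTGS2, FOS and targets of NF-kB. Shares of these lists against all genes tested, here and below, are therefore a description and no independent evidence. An adjusted p under 0.05 was reached by 30 that were higher and 3 that were lower with PDBAG1, that is 40.5% and 4.05%, against 21.7% and 15.9% of all genes tested. Their median log2 difference was 0.14, against 0.03 over all genes tested. The 4 lists nearest to the 9 genes (arachidonate release, other synthases, other receptors, transport and breakdown) held 25 tested genes, of which 10 rose and 1 fell. These were 40% and 4%, against 21.7% and 15.9% of all genes tested, and 8 of the 10 were in the arachidonate release list. PLA2G4B, PLA2G4D, PTGFR, NR4A2 and FOSB met the filter only through their higher PDBAG1 libraries, and with at least 1 TPM required in every library 26 pathway genes rose and 3 fell. PLA2G2A, PTGDS, HPGDS, PTGDR and CYSLTR1 were not analysed here.

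Of 13 tested genes of arachidonate release and reacylation, 8 rose and 0 fell in limma at an adjusted p under 0.05, a count of higher genes that was 5 without vehicle replicate 2, without vehicle replicate 3 or with no filter, and 6 with at least 1 TPM in every library. In percent this was 61.5% higher, against 21.7% of all genes tested. PNPLA8, a calcium-independent phospholipase, was at 22.30, 21.02 and 20.19 TPM with vehicle and 29.88, 30.42 and 32.10 TPM with PDBAG1, with a log2 difference of 0.52 (limma, adjusted p = 2.27e-05). PLA2G15, a lysosomal phospholipase, rose from 11.3 ± 0.458 to 15.2 ± 1.36 TPM (SD, n = 3; limma, adjusted p = 0.00128). PLA2G4D, a cytosolic phospholipase related to PLA2G4A, was at 0.70, 0.20 and 0.45 TPM with vehicle and 1.36, 1.56 and 2.05 TPM with PDBAG1. In the limma fit of all genes with no filter its adjusted p was 0.00345. ANXA1, a phospholipid-binding protein known as an inhibitor of phospholipase A2, rose from 1336 ± 22.5 to 1526 ± 40.6 TPM (limma, adjusted p = 0.000504). PLA2G4B was called as well and is among the 8 that rose, but its vehicle libraries were at 1.83, 0.25 and 0.00 TPM and its groups overlapped. It shares sequence with the readthrough gene JMJD7-PLA2G4B, so its values are uncertain. That readthrough gene went the opposite way, also with overlapping groups. It was at 1.17, 2.56 and 3.25 TPM with vehicle and 0.61, 1.27 and 1.39 TPM with PDBAG1 (limma, adjusted p = 0.03). MBOAT7, which returns arachidonic acid to phosphatidylinositol, differed by 0.02 on the log2 scale (limma, adjusted p = 0.762).

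Among 5 tested synthases of other prostanoids, only AKR1C3, which makes prostaglandin F2 alpha, rose, from 24.3 ± 2.61 to 31.7 ± 3.16 TPM (SD, n = 3; limma, adjusted p = 0.0037). This list thus had 20% higher, against 21.7% of all genes tested. The abundant AKR1B1, also an aldo-keto reductase, and CBR1, a carbonyl reductase, differed by 0.02 and -0.02 on the log2 scale, with limma adjusted p of 0.877 and 0.798. Of 2 tested receptors, 1 passed and was higher, or 50%. It was the thromboxane receptor TBXA2R with an adjusted p of 0.049 in limma, which missed the threshold in 11 of 12 alternative settings (0.0522 to 0.253). The prostaglandin F receptor PTGFR was at 0.75 ± 0.115 and 1.11 ± 0.0819 TPM (limma, adjusted p = 0.0903). With no filter the adjusted p of PTGFR in limma was 0.0327. Of 5 tested genes of transport and breakdown, PTGR1, a prostaglandin reductase, fell from 82.5 ± 0.605 to 67.8 ± 0.652 TPM (limma, adjusted p = 0.000215) and 4 did not pass, although 2 fell without vehicle replicate 1. Among the others was CBR3, a carbonyl reductase, at 44.4 ± 5.58 and 42.0 ± 2.03 TPM (limma, adjusted p = 0.499). In the transport and breakdown list 0% were higher and 20% lower, against 21.7% and 15.9% of all genes tested. Among 7 tested lipoxygenase and leukotriene genes, MGST3, a glutathione transferase that can make leukotriene C4, rose from 230 ± 12.7 to 285 ± 10.9 TPM (limma, adjusted p = 0.000186), and 2 genes of this list passed without vehicle replicate 1, PDBAG1 replicate 1 or PDBAG1 replicate 3. In the main fit 14.3% of this list were higher, against 21.7% of all genes tested. LTA4H, which makes leukotriene B4, was at 114 ± 4.77 and 124 ± 7.14 TPM (limma, adjusted p = 0.0911).

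Of 13 tested components of signalling below EP2 and EP4, 5 rose and 2 fell, or 38.5% and 15.4%, against 21.7% and 15.9% of all genes tested. Only 2 rose without vehicle replicate 2 or without vehicle replicate 3, and 3 without PDBAG1 replicate 3 or with median-of-ratios scaling. The number that fell was 1 when any library but PDBAG1 replicate 3 was left out. The adenylyl cyclases ADCY7 and ADCY3 went opposite ways: ADCY7 was at 9.81, 8.99 and 8.28 TPM with vehicle and 11.67, 12.04 and 11.72 TPM with PDBAG1 (limma, adjusted p = 0.00307), and ADCY3 was at 18.52, 15.51 and 16.96 TPM with vehicle and 12.64, 12.39 and 13.82 TPM with PDBAG1 (limma, adjusted p = 0.00246). The cyclases ADCY6 and ADCY9 differed by 0.18 and 0.10 log2 units and did not pass (limma, adjusted p = 0.122 and 0.413). The stimulatory G protein subunit GNAS was at 847 ± 23.8 and 926 ± 3.35 TPM (limma, adjusted p = 0.00832) and ARRB1, a beta-arrestin, at 32.3 ± 1.6 and 37.5 ± 1.34 TPM (limma, adjusted p = 0.0114). PRKAR1A, a regulatory subunit of protein kinase A, was at 175 ± 7.52 and 196 ± 14.2 TPM (limma, adjusted p = 0.0274), and ATF1, a CREB family factor, at 38.7 ± 1.74 and 34.2 ± 2.75 TPM (limma, adjusted p = 0.0441). Of 12 alternative settings, the call of PRKAR1A was lost in 5 and that of ATF1 in 7. The call of GNAS was lost with median-of-ratios scaling (limma, adjusted p = 0.144) and without vehicle replicate 3 (0.0586), and that of ARRB1 without vehicle replicate 2 (limma, adjusted p = 0.0581). Genes known to respond to cyclic AMP and CREB gave 5 that rose and 0 that fell of 8 tested. In percent this was 62.5% higher, against 21.7% of all genes tested. With at least 1 TPM in every library 3 rose, a setting that leaves out NR4A2 and FOSB. The nuclear receptor NR4A1 went from 1.41 ± 0.133 to 7.49 ± 0.655 TPM (SD, n = 3), a log2 difference of 1.82 (limma, adjusted p = 1.51e-08). NR4A2, a related receptor, was at 1.02, 1.05 and 0.94 TPM with vehicle and 4.07, 4.64 and 4.63 TPM with PDBAG1, and FOSB, a subunit of AP-1, at 0.69, 0.39 and 0.70 TPM and at 3.61, 4.15 and 3.87 TPM. With no filter their adjusted p in limma was 3.19e-05 for NR4A2 and 4.66e-05 for FOSB. DUSP1, a phosphatase of MAP kinases, rose from 67.2 ± 2.67 to 85.4 ± 0.946 TPM (SD, n = 3; limma, adjusted p = 7.6e-05). CREM, a CREB family member, differed by 0.09 (limma, adjusted p = 0.269). PDE4B and PDE4D, which break down cyclic AMP, differed by -0.02 and 0.14 log2 units (limma, adjusted p = 0.93 and 0.236). Many genes of this list are also immediate early genes that other signals raise.

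Of 11 tested factors known to bind the PTGS2 promoter, 7 rose and 0 fell, 63.6% against 21.7% of all genes tested that were higher. FOS was already known to differ when this list was written, so this share is a description only. The count was 4 without vehicle replicate 3, and 5 without PDBAG1 replicate 3, with median-of-ratios scaling or with no filter. CEBPB, which binds the C/EBP motif, was at 86.71, 97.10 and 88.23 TPM with vehicle and 172.55, 156.70 and 152.29 TPM with PDBAG1, a log2 difference of 0.82 (limma, adjusted p = 1.37e-07). The AP-1 subunit FOS was at 2.16, 2.23 and 1.76 TPM with vehicle and 9.62, 10.85 and 9.07 TPM with PDBAG1, a log2 difference of 1.83 (limma, adjusted p = 1.45e-08). The NF-kB subunit RELA rose from 84.2 ± 1.43 to 102 ± 3.86 TPM (SD, n = 3; limma, adjusted p = 0.000351), and its partner NFKB1 was at 22.3 ± 1.14 and 26.1 ± 1.37 TPM (limma, adjusted p = 0.0173). The call of NFKB1 was lost without vehicle replicate 3 (limma, adjusted p = 0.0959) and without PDBAG1 replicate 3 (0.0637). HIF1A, the hypoxia-inducible factor, was at 355 ± 21.6 and 389 ± 19.5 TPM with overlapping groups, and its call (limma, adjusted p = 0.0423) was lost in 7 of 12 alternatives. USF2, which binds E-boxes, differed by 0.06 log2 units (limma, adjusted p = 0.253). Of 10 tested proteins that bind PTGS2 messenger RNA, 2 rose and 0 fell, or 20% higher against 21.7% of all genes tested. Both belong to a family that promotes mRNA decay, of which ZFP36L2 differed by only 0.02 log2 units (limma, adjusted p = 0.826). ZFP36 rose from 18.8 ± 0.432 to 29.9 ± 2.28 TPM (limma, adjusted p = 7.49e-06) and ZFP36L1 from 151 ± 4.70 to 217 ± 4.55 TPM (limma, adjusted p = 4.29e-07). The abundant HNRNPD and RBM3, both RNA-binding proteins, differed by -0.11 and -0.07 log2 units (limma, adjusted p = 0.0577 and 0.183). The 0 that fell became 3 with median-of-ratios scaling, 1 with quantile normalization and 2 without PDBAG1 replicate 3.

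**Figure D3:**
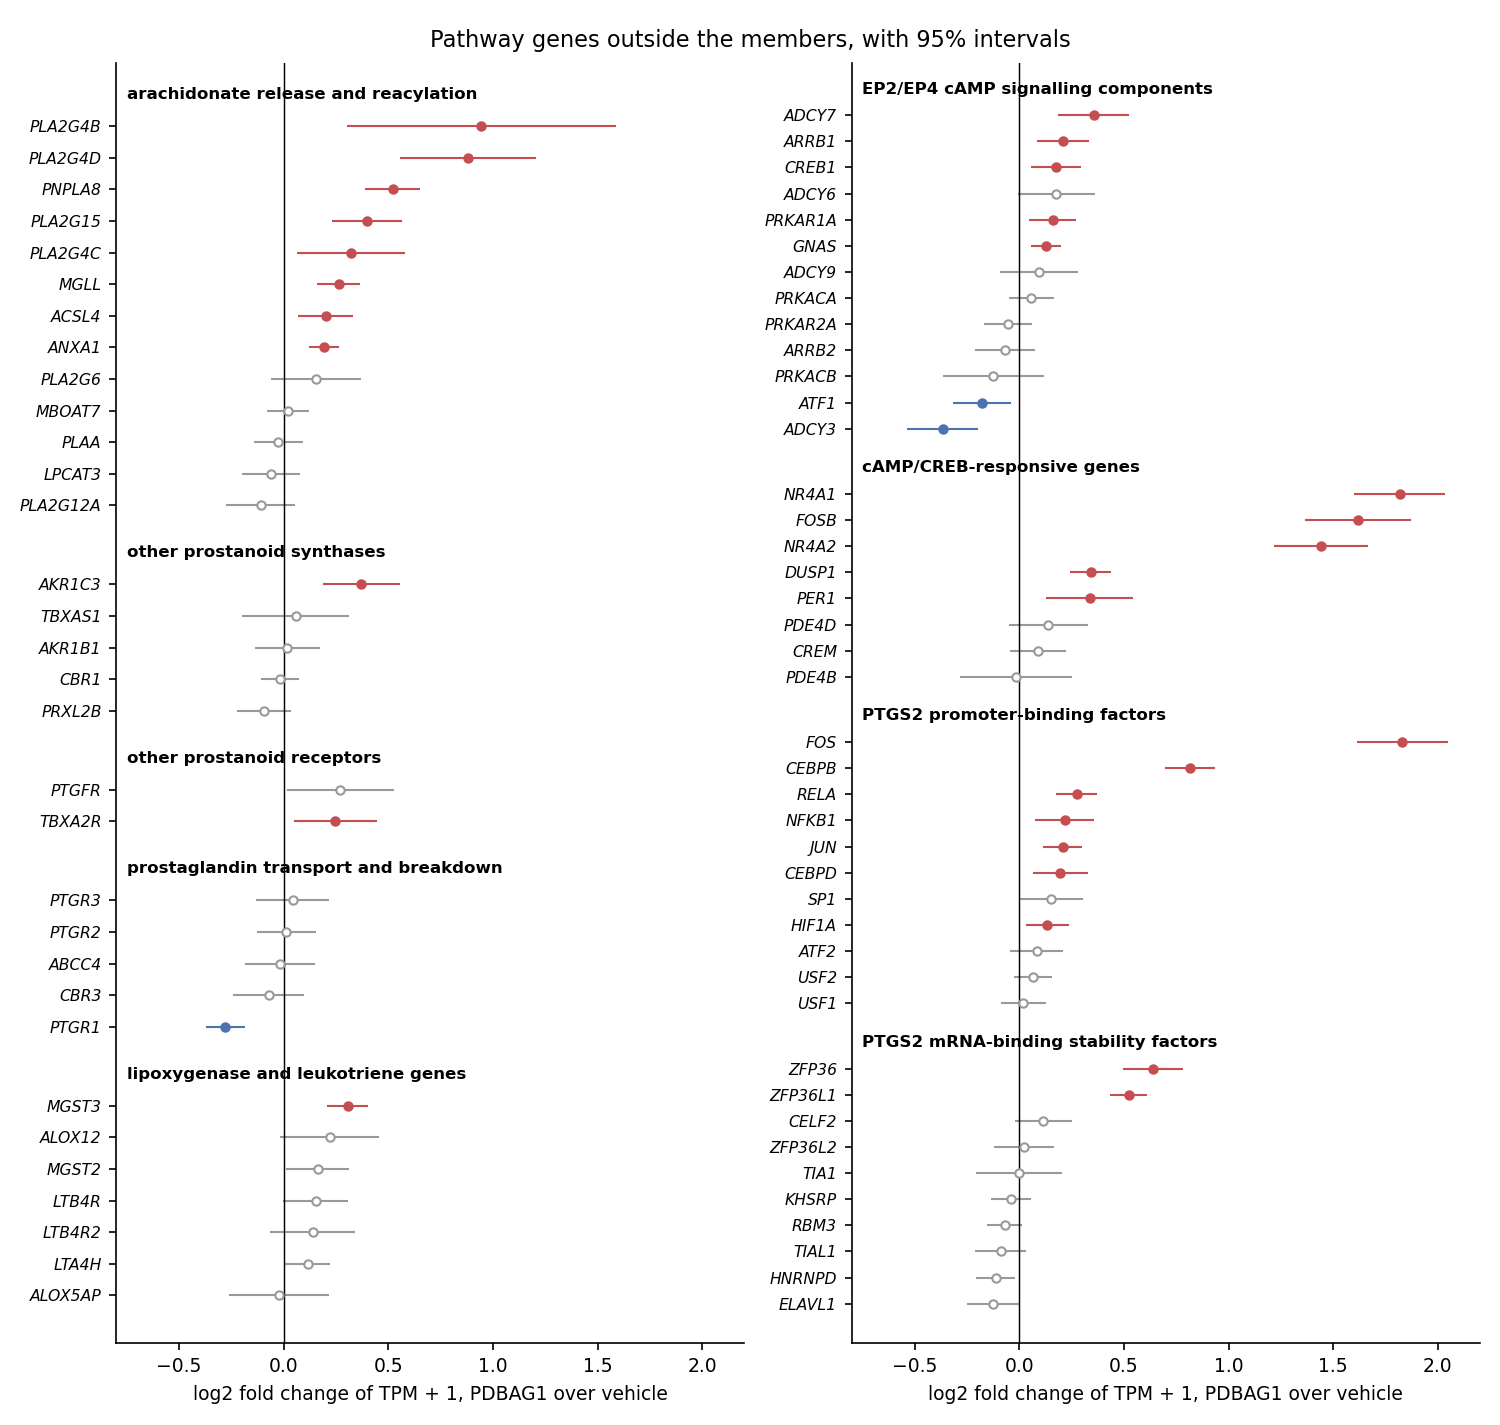
Log2 difference between PDBAG1 and vehicle on the log2(TPM + 1) scale for tested pathway genes by list, with bars for 95% intervals, red for genes that passed the limma test and were higher, blue for those that passed and were lower, and open grey for the rest. NR4A1, FOS, FOSB and NR4A2 lie farthest to the right, at 1.44 to 1.83.

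The genes whose profile over the 6 libraries lay nearest to that of PTGS2, by Euclidean distance between log2(TPM + 1) values centred on the vehicle mean of each gene, were STC1 at 0.129, NDRG1 at 0.256, BHLHE40 at 0.678, PPFIA4 at 0.818 and FOS at 0.819. STC1, which encodes the secreted glycoprotein stanniocalcin 1, was at 29.60, 30.71 and 28.85 TPM with vehicle and 142.08, 157.26 and 153.34 TPM with PDBAG1. With 2 groups of 3 libraries, this measure mainly reads the size of the difference between the groups. PTGS2 and PLA2G4A lie 148 kb apart on opposite strands with 0 protein-coding genes between them. Of 5 other genes within 500 kb of either, chosen after their values were seen, TPR was at 44.3 ± 6.64 and 52.2 ± 6.30 TPM (SD, n = 3; limma, adjusted p = 0.0757), ODR4 at 19.3 ± 0.0794 and 19.7 ± 1.92 TPM (limma, adjusted p = 0.852), and HMCN1, PRG4 and PDC were under the filter.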

How the data were processed

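Cells were sampled in 6 libraries, 3 per group, mapped from the sample titles. The authors deposited TPM per gene for 17631 genes, with an equal total for every library, so depth and counting error are unknown. Per the methods, reads from a BGISEQ-500 were aligned with HISAT2 to GRCh38 and normalised to FPKM, and the submitters' processing notes name HISAT2 2.0.4, Bowtie2 2.2.5, RSEM 1.2.12 and GRCh38.p12. The methods name a different patch release of GRCh38 from that in the processing notes. The step to TPM and the annotation are not given in the sources used here.

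The members and lists were chosen with earlier results of these data known. Genes with at least 1 TPM in 3 or more libraries (12582) were fitted with limma 3.58.1 in R 4.3.3 (lmFit, eBayes with a variance trend) on log2(TPM + 1), which understates changes of low genes, with Benjamini-Hochberg adjustment. The code was tested on simulated data. Named genes were the 9 members, in each list up to 4 genes passing the test with the largest log2 difference and the 2 most abundant tested genes, and the 5 profiles nearest to PTGS2; other genes were named where a result turned on them. Alternatives were other filters, pseudocounts, scalings, fold limits, a replicate block and leaving out each library. Gene positions are from GENCODE on GRCh38.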

Additional observations from a re-analysis of the deposited data

How the results depend on the processing

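TPM keeps no depth, and 3 libraries per group limit the precision. At 1.5-fold and an adjusted p under 0.05 limma called 420 genes, against 80 at a limit of 2 and 4736 with no fold limit, and 423 to 483 when each library was left out in turn. At the 1.5-fold limit it called 630 with a pseudocount of 0.1 and 375 with at least 1 TPM in every library. The count was 377 with median-of-ratios scaling and 381 with quantile normalization. The log2 difference of PTGS2 was 2.22 to 2.48 and that of PTGES 0.68 to 0.76 over all alternatives. Pathway genes that rose numbered 30, and 20 (without vehicle replicate 3) to 28 with a library left out. Those that fell numbered 3, against 6 with median-of-ratios scaling, 5 with quantile normalization and 2 to 5 with a library left out (5 without PDBAG1 replicate 3). Of the 7 genes of the pathway's core that were tested, 3 passed, against 37.6% of all genes tested. Over the alternatives 2 to 5 passed, with 5 under median-of-ratios scaling, where PTGES2 and PTGES3, both lower, were added. The call of PLA2G4A was lost in 4 of 12 alternatives. Nothing is read from these counts either, since the same values chose the genes. Near-zero log2 differences changed sign: MBOAT7 was -0.021 with median-of-ratios scaling and -0.0056 to 0.065 with a library left out, AKR1B1 -0.025 and -0.084 to 0.082, and CBR1 0.012 with quantile normalization and -0.046 to 0.012 with a library left out. The causes were not tested.

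The replicate numbers did not pair the samples: deviations of same-numbered libraries correlated at -0.207, 0.0118 and -0.0785, and no vehicle library correlated best with its own number. With the replicate block, 427 genes were called, and 25 pathway genes rose and 2 fell. The block left 5 of 7 promoter-binding factors higher, and the call of NFKB1 was lost (limma, adjusted p = 0.05).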
